A study of Mus musculus with 8 samples.

Results

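DNA replication and G1/S genes were followed in mouse small intestinal organoids as a list of 35 members: subunits of the origin recognition and licensing machinery, of the replicative helicase and of the DNA polymerases, the clamp and its loaders, enzymes of Okazaki fragment processing and of deoxynucleotide synthesis, chromatin factors of the fork, and the cyclins, kinases and transcription factor that open S phase. Members were found by the RefSeq accession that each array probe carries, and the brightest probe stood for its gene. Of the 35 members, 34 had such a probe, Rrm2 being the one without, and 32 had a usable spot on every array and entered the test, among 19255 genes tested. All 34 were well above background in Cy5 on all 8 arrays, so none of them was kept only through a group in which it was high.

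Organoids of 2 independently established wild-type lines were grown in Matrigel for 6 days under 4 conditions: CHIR99021 at 3 µM, valproic acid (VPA) at 1 mM, both compounds at those doses (CHIR99021+VPA), or control medium. CHIR99021 inhibits the kinase GSK3 and so raises Wnt signalling, which maintains the proliferating crypt base, and VPA inhibits histone deacetylases. Total RNA of each culture was labelled with Cy5 and hybridised against Cy3-labelled control RNA of the same line on an Agilent whole mouse genome array, which gave 2 arrays, 1 per line, in each of the 4 groups. The value of a gene on an array is its log2 Cy5/Cy3 ratio, a difference and not a level, and the control arrays, which hold control RNA in both dyes, are the baseline for each compound. No dye swap was made, each line lay on a slide of its own, and the 2 lines are the whole replication, so line, slide and replicate number cannot be told apart.

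Replication is prepared in G1, when the origin recognition complex, Cdc6 and Cdt1 load the MCM helicase onto DNA. Cyclin E with Cdk2 and cyclin D with Cdk4 or Cdk6 then inactivate the retinoblastoma protein and free E2F factors, which switch on the genes for helicase activation, DNA synthesis and nucleotide supply. In the intestine this programme runs in the crypt, in stem cells and transit-amplifying cells, and is shut off in the differentiated cells. In these bulk samples, fewer cells of a type and less RNA per cell cannot be told apart.

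All 8 epithelial markers examined were well above background on all 8 arrays, while 4 of 5 endothelial markers and the fibroblast markers Dcn and Lum were above background on no array. The share of spots above background in Cy5 was 59.4% to 63.2% over the arrays, and 0 spots were saturated. Markers of cell types moved with the treatments. Over all genes tested, 1.01% fell with CHIR99021, 4.27% with VPA and 7.09% with CHIR99021+VPA. In the same order, 0.114%, 6.58% and 8.43% rose. Of the 8 epithelial markers, 1 fell with CHIR99021, 3 fell with VPA, and 4 fell and 1 rose with CHIR99021+VPA (medians -0.08, -0.35 and -0.43). Of 12 enterocyte markers, 4 fell with CHIR99021 and 7 with CHIR99021+VPA (median log2 differences from control -1.83 and -1.77), while with VPA 1 rose and 2 fell (median 0.14). Of 7 goblet markers, 0 fell with CHIR99021, 5 with VPA and 7 with CHIR99021+VPA (medians -0.88, -1.28 and -2.79). Medians with CHIR99021, VPA and CHIR99021+VPA were 0.66, -0.61 and -1.42 for 5 Paneth markers, -0.43, -2.15 and -2.37 for 7 enteroendocrine markers, and -0.77, -0.94 and -1.48 for 7 tuft markers. Of these 3 lists, 0 markers passed with CHIR99021. With VPA, 1 Paneth, 3 enteroendocrine and 1 tuft marker fell, and with CHIR99021+VPA 2, 3 and 2 fell. The 9 crypt stem cell markers tested had medians of 0.45 with CHIR99021, 0.06 with VPA and 0.41 with CHIR99021+VPA, and 2 of them rose with CHIR99021+VPA. The part of these changes of cell type in the results below was not tested.

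E2F sites are the class of promoter element through which this programme is switched on, and the promoters of the list were searched for them. In RefSeq promoter windows of 300 bases (250 before to 50 after the annotated start, GRCm38.p6), the E2F words TTTCGCGC, TTTGGCGC, TTTCCCGC and TTTGCCGC were searched on both strands, and 13 of 30 members with a window held at least 1 of them (43.3%), against 2.6% of 27025 genes in the table and 2 of 29 G2/M genes (6.9%). The CCAAT box, searched as CCAAT on both strands, stood in 17 of the 30 members (56.7%), in 24 of the 29 G2/M genes (82.8%) and in 41.1% of all genes; an E2F word and a CCAAT box overlapped in 5 of the 32851 windows of the table. Mcm6, a helicase subunit picked here after its matches were seen, held 3 E2F words before its start, of which 2 overlap each other, and 2 CCAAT boxes. The promoters of Tk1 (thymidine kinase) and Ccne1 (cyclin E1), the members with the largest fall and the largest rise, held neither motif in the window, and that of Cdc45, a helicase activator likewise picked after its matches were seen, held CCAAT boxes alone. Their 250 bases before the start are printed 5′ to 3′ on the strand of the gene, with E2F words and CCAAT boxes in capitals (ATTGG is CCAAT read on the other strand); a CCAAT box of Cdc45 that runs across the start is left in lower case. Mcm6 lies at chr1:128359706-128359955, Ccne1 at chr7:38107491-38107740, Tk1 at chr11:117826015-117826264 and Cdc45 at chr16:18811973-18812222, all on the minus strand.
Mcm6: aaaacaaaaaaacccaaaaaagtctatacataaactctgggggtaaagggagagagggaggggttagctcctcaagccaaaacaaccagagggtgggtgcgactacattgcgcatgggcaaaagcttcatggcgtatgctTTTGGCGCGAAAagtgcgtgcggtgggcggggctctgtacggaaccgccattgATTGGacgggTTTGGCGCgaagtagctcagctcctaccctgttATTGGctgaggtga
Ccne1: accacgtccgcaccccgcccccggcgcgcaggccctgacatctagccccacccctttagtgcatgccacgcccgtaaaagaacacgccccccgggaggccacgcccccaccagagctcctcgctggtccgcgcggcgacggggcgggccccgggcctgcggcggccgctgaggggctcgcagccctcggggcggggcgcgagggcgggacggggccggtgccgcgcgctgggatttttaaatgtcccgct
Tk1: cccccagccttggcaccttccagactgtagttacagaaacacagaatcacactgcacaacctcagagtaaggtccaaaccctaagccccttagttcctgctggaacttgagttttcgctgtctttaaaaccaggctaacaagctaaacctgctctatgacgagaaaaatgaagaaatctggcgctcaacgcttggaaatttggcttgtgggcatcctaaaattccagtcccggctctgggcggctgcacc
Cdc45: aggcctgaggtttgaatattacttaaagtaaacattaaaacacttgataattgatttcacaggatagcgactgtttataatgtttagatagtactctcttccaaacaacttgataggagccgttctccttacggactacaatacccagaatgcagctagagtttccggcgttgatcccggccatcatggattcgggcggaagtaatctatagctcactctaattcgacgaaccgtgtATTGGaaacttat
Among the 7 members that passed a test in any comparison below, Pold1 and Lig1 held an E2F word, both after the annotated start, and Tk1, Tyms, Rfc4, Ccne1 and Cdc45 held none in the window. A match is a description of letters and not a measured site, and 5 members had no window in the table.

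Across the 8 arrays the middle of the list lay on opposite sides of control with CHIR99021 and with VPA. The median log2 ratio over the 32 members was 0.21 and 0.19 on the CHIR99021 arrays of line 1 and line 2, -0.24 and -0.57 on the VPA arrays, -0.21 and -0.22 on the CHIR99021+VPA arrays, and -0.06 on both control arrays. The median over all genes tested was 0.03 or 0.04 on each of the 8 arrays. The VPA array of line 2 had the lowest median of the 8, and the VPA array of line 1 lay close to the arrays of both compounds.

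**Figure D1:**
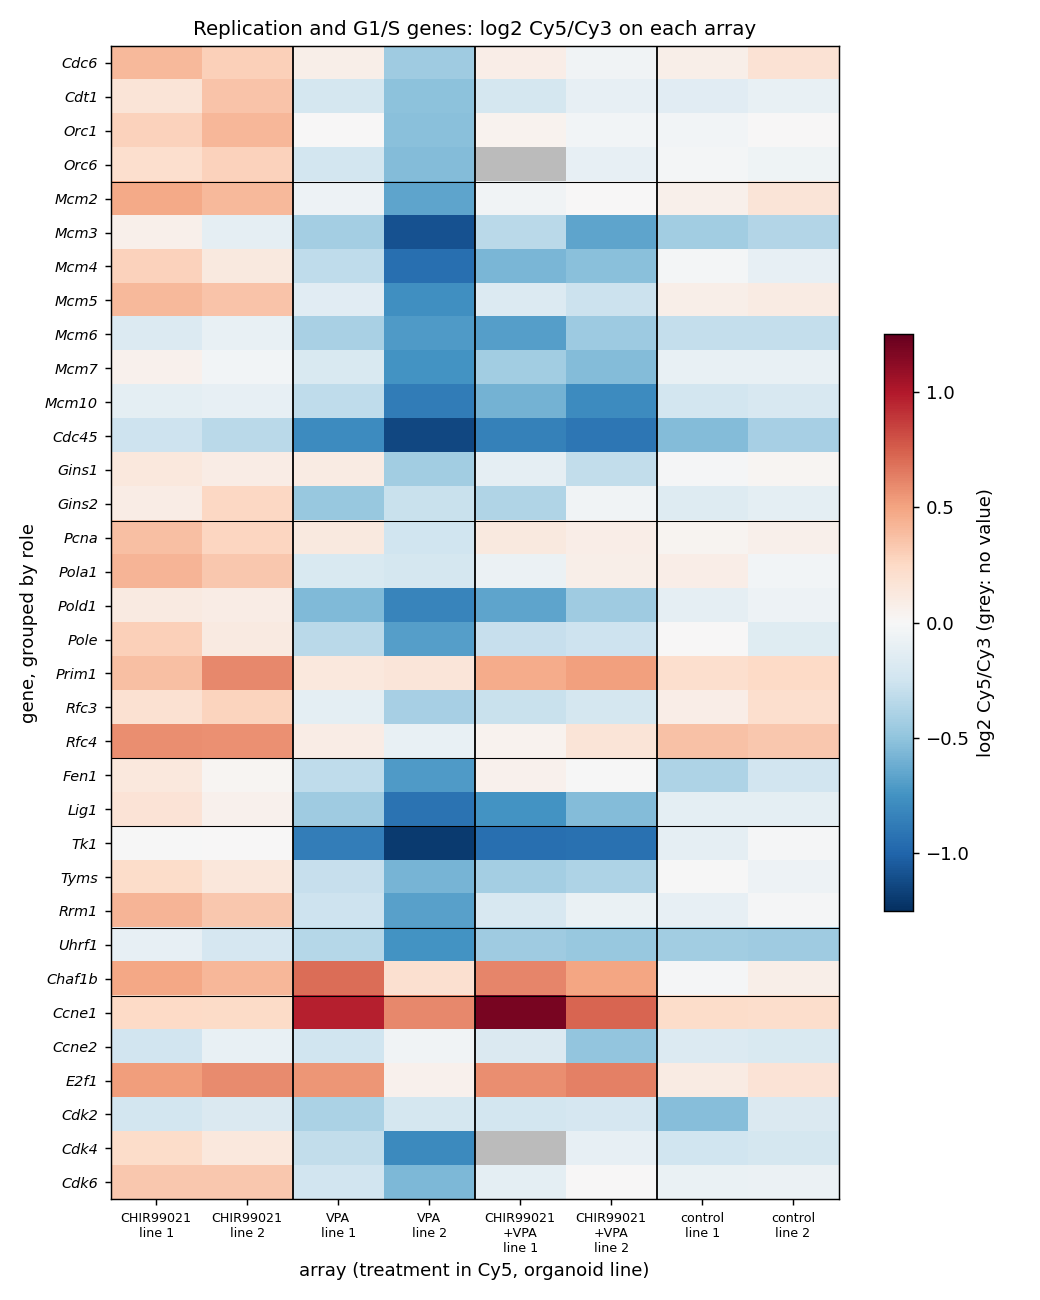
Log2 Cy5/Cy3 ratio of the 34 genes with a probe (rows, grouped by role) on the 8 arrays (columns, treatment and organoid line); grey marks the 2 genes without a value on one array. The CHIR99021 columns are mostly red, the VPA line 2 column is mostly blue with a lowest value of -1.20, and the Ccne1 row is red on all 8 arrays, with a highest value of 1.19 on CHIR99021+VPA line 1.

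The heat map of ratios by array shows that pattern gene by gene. Orc6, a subunit of the origin recognition complex, and Cdk4, the cyclin D kinase, had a spot marked as an outlier on the CHIR99021+VPA array of line 1 and were left out of the test. Orc6 had ratios of 0.21 and 0.29 with CHIR99021, -0.23 and -0.54 with VPA, -0.10 on the one CHIR99021+VPA array, and -0.03 and -0.06 in control. Cdk4 had 0.23 and 0.14 with CHIR99021, -0.31 and -0.80 with VPA, -0.10 on the one CHIR99021+VPA array, and -0.25 and -0.22 in control. Both therefore lay above control with CHIR99021 and below it with VPA on both arrays, and neither passed the test when fitted on the 7 remaining arrays (Cdk4 with CHIR99021 0.42, adjusted p = 0.401; Orc6 with VPA -0.34, adjusted p = 0.164).

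CHIR99021 set against control asks what this compound alone did to these genes. All 32 members had a positive mean difference, with a median of 0.27 on the log2 scale (0.23 in line 2 and 0.30 in line 1), against 0.01 for all genes. No single member passed limma's test at a Benjamini-Hochberg adjusted p of 0.05, at which 1.12% of all genes tested were called (0.114% rose and 1.01% fell). At an unadjusted p under 0.05 there were 8 members, against 12.8% of all genes. Both CHIR99021 arrays lay above both control arrays in 29 of 32 members, against 26.5% of all genes. The 3 members whose groups overlapped were Rfc3, a clamp loader subunit, Ccne2, cyclin E2, and Cdk2.

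The largest differences with CHIR99021 were those of Rrm1, E2f1 and Cdk6. Rrm1, the large subunit of ribonucleotide reductase, had ratios of 0.43 and 0.34 with CHIR99021, against -0.11 and -0.01 in control. E2f1, the G1/S transcription factor, had 0.52 and 0.59 with CHIR99021, against 0.10 and 0.17 in control. Cdk6, the second cyclin D kinase, had 0.34 on both CHIR99021 arrays, against -0.08 and -0.07 in control. In all 3 genes the groups did not overlap, and the differences were 0.44 ± 0.15 for Rrm1, 0.42 ± 0.16 for E2f1 and 0.42 ± 0.12 for Cdk6 (SE, n = 2 per group), with limma adjusted p of 0.271, 0.343 and 0.215. Chaf1b, a subunit of the chromatin assembly factor at the fork, stood at 0.42 ± 0.16 (adjusted p = 0.355), and Pola1, the catalytic subunit of the priming polymerase, had the smallest adjusted p of the list, 0.189, at 0.36 ± 0.10. Ccne1 (0.02), Ccne2 (0.02) and Tk1 (0.07) had the smallest differences.

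By role, the medians with CHIR99021 were 0.37 for the 3 licensing factors tested, 0.23 for the 10 helicase members (Mcm2 to Mcm7, Mcm10, Cdc45, Gins1 and Gins2), 0.26 for the 7 polymerase and clamp members, 0.22 for the 3 nucleotide synthesis enzymes and 0.15 for the 5 G1/S regulators. Every one of these members was positive. With the organoid line as a block in the fit, 0 members passed, and 2.89% of all genes did (0.405% rose and 2.49% fell).

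VPA set against control asks what the deacetylase inhibitor alone did. Tk1 and Pold1, the catalytic subunit of DNA polymerase delta, fell, and 0 members rose. Over all genes, 4.27% fell and 6.58% rose (10.9% in either direction). Of the 32 members, 27 had a negative mean difference and the median was -0.32, against 0.00 for all genes, and 15 members, 2 of them with positive differences (Ccne1 and Chaf1b), had an unadjusted p under 0.05, against 26% of all genes. Both VPA arrays lay below both control arrays in 21 members, against 28.5% of all genes, and above them in Ccne1 and Chaf1b alone of the 32, against 28.9% of all genes; the other 9 members overlapped.

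Tk1, which salvages thymidine for DNA synthesis, had ratios of -0.86 and -1.20 with VPA, against -0.12 and -0.02 in control. Pold1 had -0.55 and -0.83 with VPA, against -0.11 and -0.06 in control. In both genes each VPA array was lower than either control array. Tk1 fell by 0.96 ± 0.12 on the log2 scale (SE, n = 2 per group; limma adjusted p = 0.00736) and Pold1 fell by 0.60 ± 0.12 (adjusted p = 0.0293). A second probe of Pold1 gave -0.54. Among the helicase members, all 10 were negative with a median of -0.38, Mcm4 at -0.57 ± 0.20 (adjusted p = 0.123) and Mcm5 at -0.54 ± 0.19 (0.129) being the largest, and none passed. Ccne1 stood out on the other side, with ratios of 0.98 and 0.60 with VPA, against 0.23 and 0.22 in control, a difference of 0.57 ± 0.18 (adjusted p = 0.101), and 0.34 by its second probe.

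With the organoid line as a block, 5 members fell with VPA, namely Tk1, Pold1, Pole (-0.44, adjusted p = 0.0351), Cdc45 (-0.48, 0.0379) and Tyms (-0.40, 0.0397), and Ccne1 rose (0.57, 0.0354). Pole is the catalytic subunit of polymerase epsilon and Tyms is thymidylate synthase. In that fit 8.56% of all genes fell and 10.9% rose. Leaving out either control array took both calls of the fit without the block, leaving out either CHIR99021 array left Tk1 alone, leaving out the VPA array of line 2 ended the call for Pold1 (adjusted p = 0.0935), and leaving out the VPA array of line 1 raised the count to 11 falls, where 5.97% of all genes were called in either direction.

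The size of the VPA difference was not the same on the arrays of the 2 organoid lines. The median over the 32 members was -0.50 in line 2 and -0.10 in line 1, and 29 members in line 2 and 22 in line 1 were negative. Line 2 lay below line 1 in 29 of 32 members (90.6%), against 50.8% of all genes, with a median gap of -0.43, against -0.00 over all genes. The 3 exceptions were Gins2, a subunit of the active helicase, Pola1 and Ccne2. Each line had 1 VPA array, so the gap between lines has no test of its own, and line, slide and array cannot be told apart in it.

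**Figure D2:**
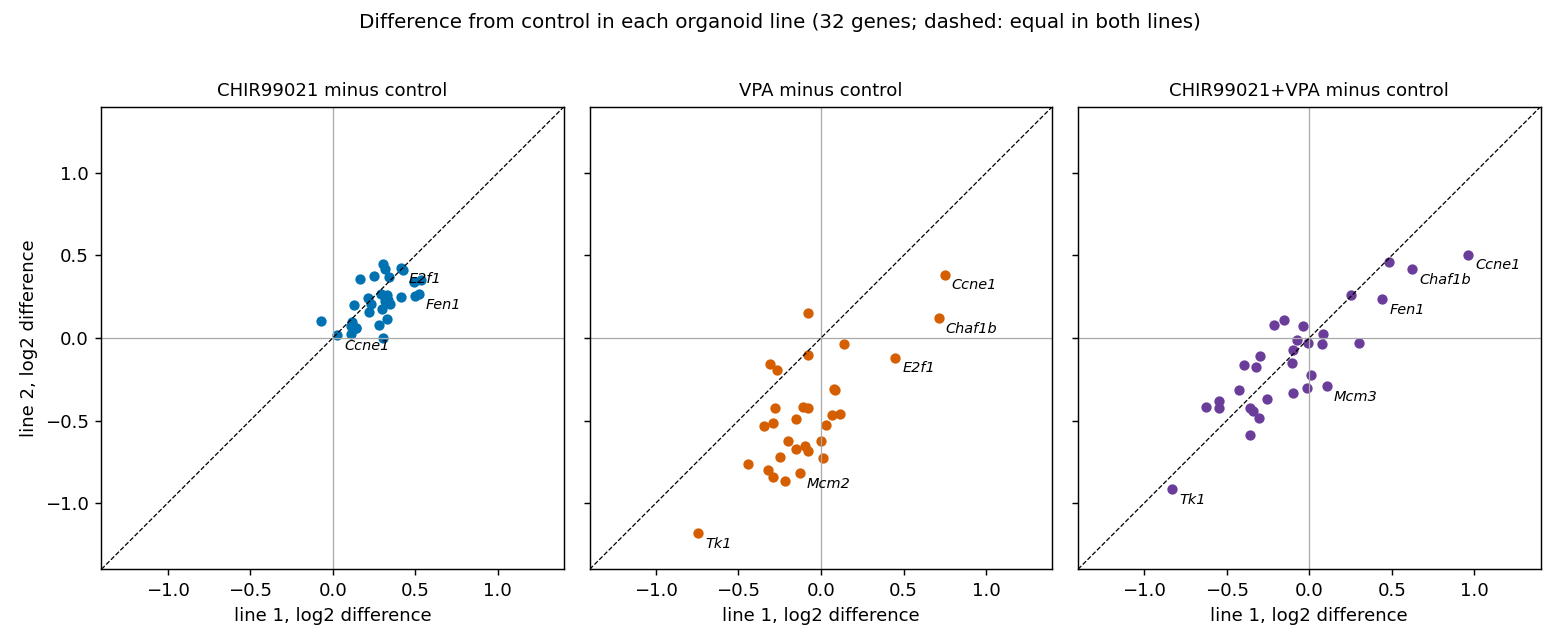
Log2 difference from control in line 1 (horizontal) and in line 2 (vertical) for the 32 genes tested (points), 1 panel per treatment; the dashed line marks equal values. With VPA, 29 of 32 points lie below the dashed line, against 23 with CHIR99021 and 19 with CHIR99021+VPA.

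Mcm2 and Mcm5 are examples from the helicase. Mcm2 had a VPA difference of -0.82 in line 2 and of -0.13 in line 1. Mcm5 had -0.86 in line 2 and -0.22 in line 1. Mcm3, at -0.72 in line 2, was at 0.01 in line 1, and Cdc6, which loads the helicase, was at -0.62 in line 2 and at -0.00 in line 1. These genes lay nearer to control in line 1 than in line 2 by their brightest probes. A second probe of Cdc6, above background on all 8 arrays, had a mean VPA difference of 0.07, against -0.31 by the brightest, so the probes of Cdc6 gave opposite signs. E2f1 differed in sign, at -0.12 in line 2 and 0.45 in line 1, and its second probe had a mean VPA difference of -0.05, against 0.16 by the brightest. The plot of line 2 against line 1 shows the shift as a cloud below the line of equal values with VPA. With CHIR99021 the median gap was -0.07 and with CHIR99021+VPA -0.05. Line 2 lay below line 1 in 23 members with CHIR99021 (71.9%, against 51.2% of all genes). With CHIR99021+VPA it did so in 19 members (59.4%, against 48.4%). For VPA the gap came to -0.59 when arrays were centred on their medians without loess, -0.46 with the scanner software's own ratios and -0.42 with the mean of all probes of a gene, alternatives chosen after seeing the data.

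CHIR99021+VPA set against control asks where the 2 compounds together left the genes. Tk1 fell and Ccne1 rose, 2 of 32 members, where 15.5% of all genes were called (8.43% rose and 7.09% fell). The median difference was -0.12 (-0.16 in line 2 and -0.10 in line 1), against 0.01 for all genes, and 23 members were negative. At an unadjusted p under 0.05 there were 13 members, against 29.6% of all genes. Both CHIR99021+VPA arrays lay below both control arrays in 16 members, against 29% of all genes, and above them in 6, against 31% of all genes. Those 6 were Pcna, the sliding clamp, Prim1, the primase, Fen1, the flap nuclease of Okazaki fragments, Ccne1, E2f1 and Chaf1b.

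Tk1 had ratios of -0.94 and -0.93 with CHIR99021+VPA, against -0.12 and -0.02 in control. Ccne1 had 1.19 and 0.72 with CHIR99021+VPA, against 0.23 and 0.22 in control. Neither gene overlapped between the groups, although the Ccne1 arrays differed by line. Tk1 fell by 0.87 ± 0.12 (SE, n = 2 per group; limma adjusted p = 0.00659), and Ccne1 rose by 0.73 ± 0.18 (adjusted p = 0.0397). The second probe of Ccne1 gave 0.59, and the mean of its probes did not pass. E2f1 (0.47 ± 0.16, adjusted p = 0.101) and Chaf1b (0.52 ± 0.16, adjusted p = 0.0808) lay above control, and Pold1 (-0.46 ± 0.12, adjusted p = 0.0502) and Lig1, the ligase that seals Okazaki fragments (-0.52 ± 0.16, adjusted p = 0.0813), lay below it without passing. With the line as a block, Chaf1b also rose (adjusted p = 0.0425), and Pold1 (0.0385) and Tyms (0.043) also fell, which made 5 members, where 25% of all genes were called. In the fit without the block, 0 members passed without either control array, 1 without either CHIR99021 array or the CHIR99021+VPA array of line 1, and 12 without either VPA array, where 16.9% of all genes were called.

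**Figure D3:**
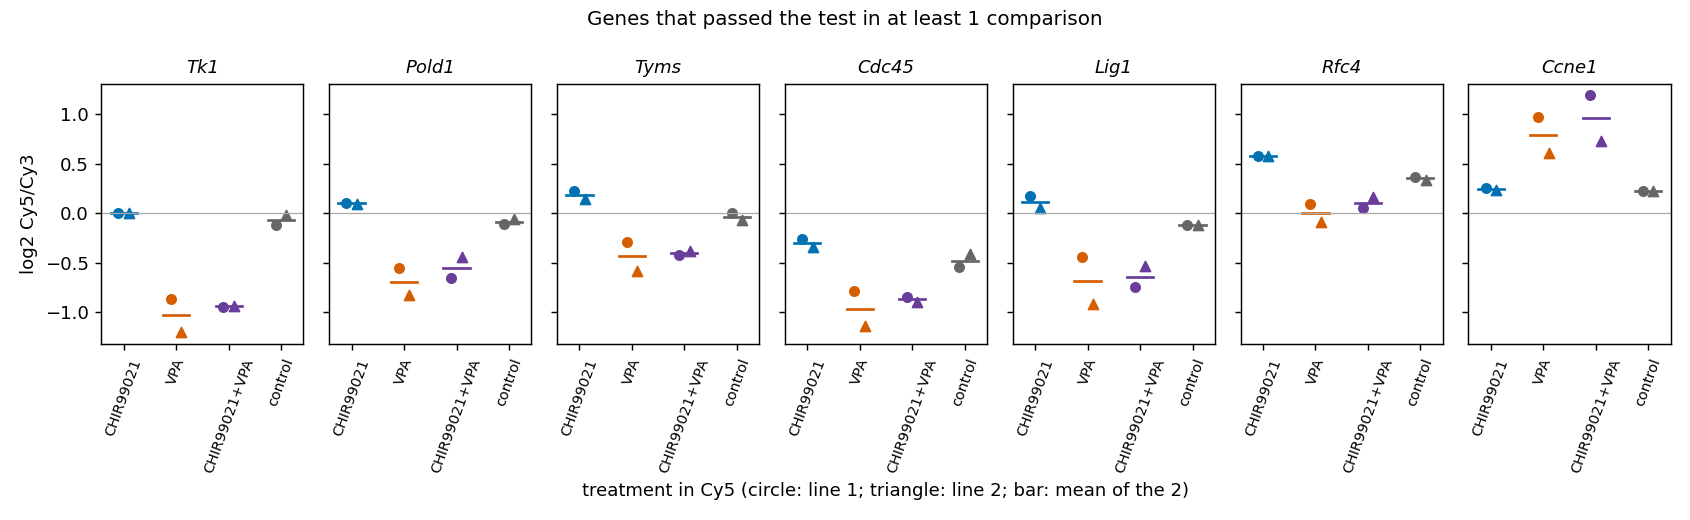
Log2 Cy5/Cy3 ratio of the 7 genes that passed the test in at least 1 comparison, by treatment (horizontal), with line 1 as circles, line 2 as triangles and a bar at their mean. In Tk1, Pold1, Tyms, Cdc45, Lig1 and Rfc4 the VPA and CHIR99021+VPA points lie below the CHIR99021 and control points, and in Ccne1 above them.

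CHIR99021+VPA set against CHIR99021 asks what VPA did to organoids that also received CHIR99021, and this comparison called the most members. Of the 32, 6 fell and 0 rose, where 3.81% of all genes fell and 6.21% rose (10% in either direction); 1 member with a positive difference, Ccne1, had an unadjusted p under 0.05, among 20 members in all, against 25% of all genes. The median difference was -0.43 (-0.40 in line 2 and -0.47 in line 1), against 0.01 for all genes, and 29 members were negative. Both CHIR99021+VPA arrays lay below both CHIR99021 arrays in 25 members, against 24.3% of all genes, and above them in Ccne1 and Chaf1b, against 27.1%. The 2 lines had nearly the same median here, with a median gap of 0.01, unlike VPA without CHIR99021, although the 2 gaps were not tested against each other. Single members differed more, with gaps of line 2 minus line 1 from -0.47 to 0.33, and 15 of the 32 lay lower in line 2.

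The 6 falls came from 4 roles. In nucleotide supply, Tk1 had ratios of -0.94 and -0.93 with CHIR99021+VPA, against -0.0031 and 0.0033 with CHIR99021, and Tyms had -0.43 and -0.38 with CHIR99021+VPA, against 0.23 and 0.14 with CHIR99021. At the fork, Pold1 had -0.66 and -0.44 with CHIR99021+VPA, against 0.11 and 0.10 with CHIR99021. In none of these 3 genes did the groups overlap. Rfc4, a clamp loader subunit, had 0.05 and 0.16 with CHIR99021+VPA, against 0.58 on both CHIR99021 arrays. Lig1 had -0.75 and -0.54 with CHIR99021+VPA, against 0.17 and 0.06 with CHIR99021. Cdc45, which joins the MCM ring to form the active helicase, had -0.84 and -0.90 with CHIR99021+VPA, against -0.26 and -0.34 with CHIR99021.

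In all 6 genes both CHIR99021+VPA arrays lay below both CHIR99021 arrays. Tk1 fell by 0.94 ± 0.12 (SE, n = 2 per group; limma adjusted p = 0.00879), Lig1 by 0.76 ± 0.16 (0.0365), Pold1 by 0.65 ± 0.12 (0.0247), Tyms by 0.59 ± 0.12 (0.0275), Cdc45 by 0.57 ± 0.13 (0.0421) and Rfc4 by 0.48 ± 0.10 (0.0315). Second probes gave -0.63 for Pold1 and -0.54 for Tyms. Mcm4 had as large a difference as Lig1, -0.76 ± 0.20, with an adjusted p of 0.0598, and Rfc3 (-0.49 ± 0.12, 0.0537) and Pola1 (-0.38 ± 0.10, 0.0594) were as close to the threshold. Ccne1 had 0.71 ± 0.18 (adjusted p = 0.0566). With the line as a block, 13 members fell, adding Mcm4, Mcm5, Mcm10, Gins2, Pola1, Pole and Rfc3, and Ccne1 rose (adjusted p = 0.0186), where 7.47% of all genes fell and 10.3% rose (17.7% in either direction). In the fit without the block, the count was 0 without the CHIR99021 array of either line, 1 without either control array or the CHIR99021+VPA array of line 1, 4 without that of line 2, and 16 without the VPA array of either line (10.7% of all genes), which enters this comparison through the shared estimate of spread alone.

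**Figure D4:**
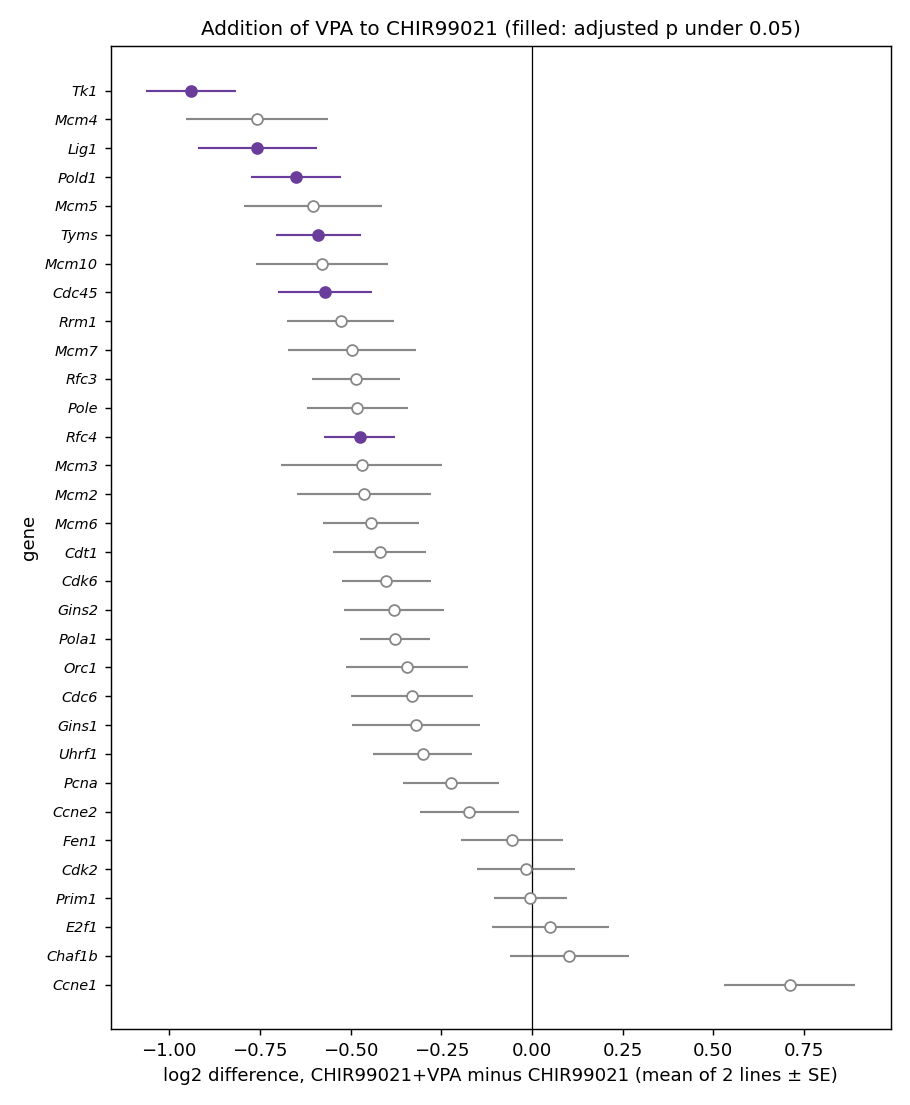
Log2 difference of CHIR99021+VPA minus CHIR99021 for each of the 32 genes tested (rows, ordered by size; mean of 2 lines with its SE as a bar); filled points passed the test. Of the 32 points, 29 lie left of 0, from Tk1 at -0.94, and Ccne1 lies alone at the right at 0.71.

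Not every member lay below 0. In the plot of VPA added to CHIR99021, Fen1 (-0.05 ± 0.14), Cdk2 (-0.02 ± 0.13), Prim1 (-0.00 ± 0.10), E2f1 (0.05 ± 0.16) and Chaf1b (0.10 ± 0.16) lay within 1 SE of 0, and Ccne1 above it. Prim1 had ratios of 0.47 and 0.51 with CHIR99021+VPA, against 0.38 and 0.60 with CHIR99021. Its groups overlapped, as did those of Fen1, Ccne2, E2f1 and Cdk2.

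CHIR99021+VPA set against VPA called 0 members by limma, where 1.12% of all genes were called (0.0883% rose and 1.03% fell), and 3 members, Fen1, Prim1 and Cdk6, had an unadjusted p under 0.05, against 14.1% of all genes. The median was 0.15, at 0.32 in line 2 and 0.00 in line 1, and 27 members were positive. Both CHIR99021+VPA arrays lay above both VPA arrays in 9 members, against 19.4% of all genes, and below them in 0, against 17% of all genes. Fen1 had the largest difference, with ratios of 0.05 and -0.01 with CHIR99021+VPA, against -0.32 and -0.71 with VPA, which made 0.54 ± 0.14 (SE, n = 2 per group; adjusted p = 0.162). With the line as a block 0 members passed, and 3.18% of all genes did. The median was -0.03 without the VPA array of line 2 and 0.32 without that of line 1.

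The interaction, the difference between the effect of both compounds and the sum of their single effects, passed for 0 members and for 0 of all genes by limma. At an unadjusted p under 0.05 there were 0 members and 511 genes (2.65%). The median interaction was 0.13 in line 2 and -0.33 in line 1, with 25 members positive in line 2 and 29 negative in line 1. The median of -0.11 over the members, taken with both lines together, therefore joined lines of opposite sign. With 1 array per line and treatment, the opposite signs were not tested.

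Other genes of the pathway, taken from 3 further lists, were measured beside the 35. Of 53 other replication genes, 0 passed with CHIR99021 (median 0.17, 49 positive), 6 fell and 0 rose with VPA (median -0.14, at -0.27 in line 2 and -0.03 in line 1), and 5 fell and 3 rose with CHIR99021+VPA (median -0.02). Over all genes 4.27% fell and 6.58% rose with VPA, and 7.09% fell and 8.43% rose with CHIR99021+VPA, so that the counts with both compounds were near the share over all genes. With the line as a block, 7 fell and 1 rose with VPA, and 6 fell and 4 rose with CHIR99021+VPA. Rnaseh2b, a subunit of the nuclease that removes RNA from DNA, fell with VPA (-0.45 ± 0.10, adjusted p = 0.0412) and with CHIR99021+VPA (-0.59 ± 0.10, 0.0131). Mcmbp, which binds the MCM complex, fell with VPA (-0.52 ± 0.09, 0.0168), and Asf1b, a histone chaperone, rose with CHIR99021+VPA (0.51 ± 0.11, 0.0217). With VPA added to CHIR99021, 9 of the 53 fell and 0 rose, where 3.81% of all genes fell and 6.21% rose, and with the block 13 fell and 2 rose, where 7.47% fell and 10.3% rose.

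Among 32 G2/M genes, which act in mitosis after replication, the order of the treatments was that of the replication genes. With CHIR99021 all 32 were positive (median 0.29, at 0.20 in line 2 and 0.37 in line 1), with 0 past the test. Line 2 lay below line 1 in 30 of the 32 with CHIR99021 and in 28 with VPA. With VPA, Ccnb1, cyclin B1 (-0.56 ± 0.12, adjusted p = 0.0345), and Kif23, a cytokinesis motor (-0.74 ± 0.17, 0.0413), fell, and the median was -0.26 (-0.39 in line 2 and -0.17 in line 1). With CHIR99021+VPA, Foxm1, a transcription factor of G2/M genes, fell (-0.47 ± 0.12, 0.0444), with a median of -0.14. These counts, 2 falls with VPA and 1 with CHIR99021+VPA, stood beside 4.27% and 7.09% of all genes that fell. With VPA added to CHIR99021, 6 fell, against 3.81% of all genes, and all 32 were negative (median -0.41). With the line as a block, 5 fell with VPA (Foxm1 among them, adjusted p = 0.0276), 4 with CHIR99021+VPA (Ccnb1 among them, 0.0444) and 14 with VPA added to CHIR99021, where 8.56%, 11.7% and 7.47% of all genes fell.

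Of 27 E2F, pocket protein and G1 regulator genes, Cdkn2b, which encodes the inhibitor p15 of Cdk4 and Cdk6, fell with CHIR99021 (-1.33 ± 0.11, adjusted p = 0.0135) and with CHIR99021+VPA (-1.68 ± 0.11, 0.000713). Tfdp2, a partner of E2F factors, fell with CHIR99021 (-0.73 ± 0.09, 0.0289) and with CHIR99021+VPA (-0.96 ± 0.09, 0.00187). With VPA, Cdkn2d, the p19 inhibitor of the same kinases, rose (0.94 ± 0.10, 0.0046), as did Rb1, the retinoblastoma protein (0.99 ± 0.16, 0.0154). Cdkn2d also rose with CHIR99021+VPA (0.93 ± 0.10, 0.00301), where Rb1 stood at 0.38 ± 0.16 (0.167), and with CHIR99021 alone Rb1 stood at -0.75 ± 0.16 (0.103). By count, 2 fell with CHIR99021, 2 rose with VPA, and 2 fell and 1 rose with CHIR99021+VPA, where 1.01% of all genes fell, 6.58% rose, and 7.09% fell and 8.43% rose. With VPA added to CHIR99021, 3 of the 27 rose and 0 fell, where 6.21% of all genes rose and 3.81% fell. Among the 3 were Rb1 (1.14 ± 0.16, adjusted p = 0.0106) and Cdkn2d (0.90 ± 0.10, 0.00591). In that comparison 4 rose and 1 fell with the block, where 10.3% and 7.47% of all genes did. With the line as a block, Ccnd3, cyclin D3, also passed with VPA (adjusted p = 0.0339) and with CHIR99021+VPA (0.00618), and with CHIR99021+VPA so did E2f5 (0.03) and Cdkn2c (0.0326), all 3 rising and named after their values were seen, where 10.9% and 13.3% of all genes rose. The medians of this list were 0.09 with CHIR99021, 0.05 with VPA and 0.19 with CHIR99021+VPA.

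**Figure D5:**
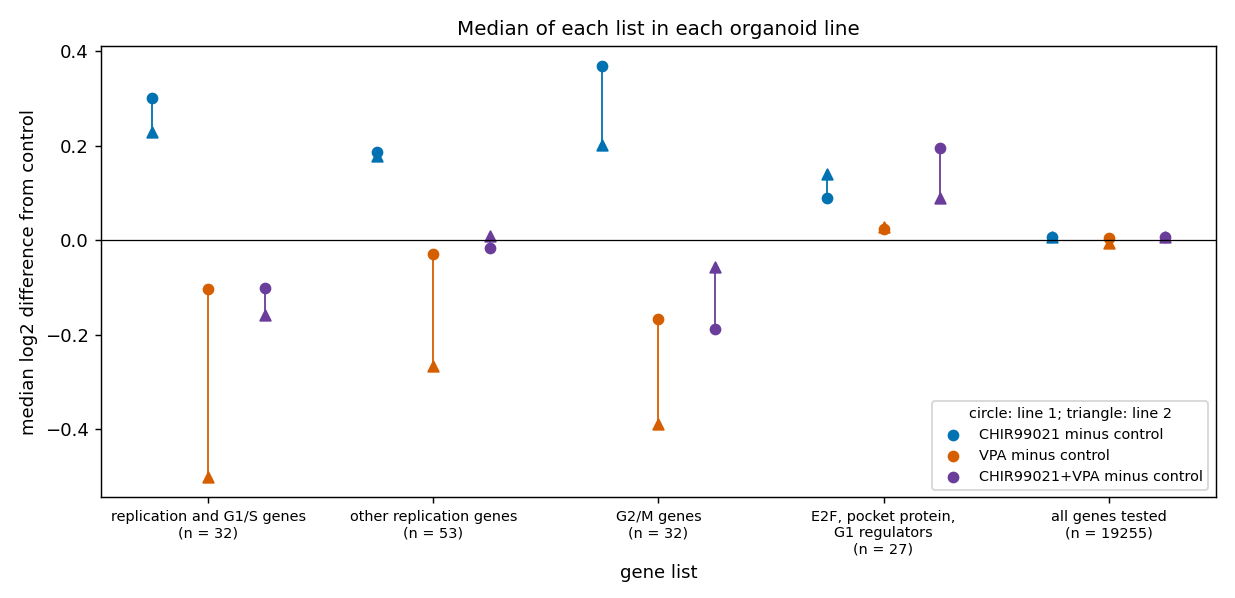
Median log2 difference from control of 4 gene lists and of all genes tested (horizontal), in line 1 (circles) and line 2 (triangles), for the 3 treatments (colours). The replication and G2/M lists lie above 0 with CHIR99021 and below 0 with VPA, with line 2 the lower of the lines with CHIR99021 and with VPA alike, and all genes lie at 0.

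The plot of list medians sets these lists side by side in each line. The VPA median of the replication and G1/S genes was -0.50 in line 2 and -0.10 in line 1, that of the other replication genes -0.27 in line 2 and -0.03 in line 1, and that of the G2/M genes -0.39 in line 2 and -0.17 in line 1. The E2F and G1 regulators had 0.03 in line 2 and 0.02 in line 1. The lists were not tested against each other.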

How the data were processed

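Total RNA of 8 organoid cultures was compared with control RNA of the same line on 2-colour Agilent arrays. The deposited intensity columns give the median brightness of a spot and of its local background in each dye; per the file headers they were read by Agilent Feature Extraction 10.5.1.1. The log10 ratio per spot is the software's processed Cy5 over Cy3, per the file headers, and the other deposited columns used are flags of 0 or 1. The authors' series table holds log2 ratios, which equalled the software's ratio within 5e-10 over 19228 spots, so its direction and scale are settled. Its column medians were 0.0169 and 0.0361 for CHIR99021, -0.0284 and -0.0239 for VPA, -0.00804 and -0.00265 for CHIR99021+VPA, and 0.00393 and 0.00566 for control (line 1 before line 2). The design named mean signals, but medians are what the files hold and what was used.

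Normexp in limma 3.58.1 (R 4.3.3) corrected the background with an offset of 50, fitted without outlier-marked spots, since 34 marked background spots on CHIR99021 line 1 reached 76947. Loess was then run on each array with the 1639 control spots of 45018 at weight 0. Of 41174 probes 27479 had a symbol through their RefSeq accession. The brightest probe stood for each of 32110 genes, of which 19334 passed a filter (Cy5 marked well above background on both arrays in at least 1 group), 79 were dropped for a marked spot, and 19255 were tested. One limma fit over the 4 groups gave all contrasts, with 4 residual and 2.68 prior degrees of freedom and Benjamini-Hochberg adjustment over all genes, threshold 0.05. The fit was tested on simulated data. The small number of arrays limits the precision.

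Replicate 1 and 2 are organoid line 1 and 2, per the labels' characteristics, and correlations of deviations between groups were 0.122 to 0.755, so the fit with the line as a block is given where it changes a call. All 35 members are named or counted, and from each other list up to 4 members with the smallest adjusted p against control. Members, lists and motifs were chosen with earlier results of these data known. Promoters are RefSeq's, GRCm38.p6, and those printed are of 3 called members and of Mcm6, which passed no test and was added for its matches. Alternatives tried were the block, the background model, normalisation, dim probes, probe choice, the groups fitted, variance moderation, testing against 0, and leaving out each array. Columns of unmatched samples numbered 0. The values of 1 further gene of the other replication list, which its counts include, are not reported here.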

Additional observations from a re-analysis of the deposited data

How the results depend on the processing

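The direction of each member that passed a test was kept under all 17 or 18 alternatives tried, while the number past the threshold depended on the setting. With the replicate block, 6 members passed for VPA (1 rise and 5 falls), 5 for CHIR99021+VPA and 14 for CHIR99021+VPA against CHIR99021, against 2, 2 and 6 without it; it changed no other count of members. Median centring in place of loess left 1 and 2 members for VPA and for CHIR99021+VPA against CHIR99021 (5.86% and 6% of all genes), and moved the share of rises among all VPA calls to 76.7%, against 60.6%, and among all calls of VPA added to CHIR99021 to 79.1%, against 62.0%, and for CHIR99021+VPA against control to 65.2%, against 54.3%. The software's own log ratio left 1 member in each of these comparisons, VPA, CHIR99021+VPA against CHIR99021 and CHIR99021+VPA (7.9%, 6.94% and 13.1% of all genes), and the mean of all probes left 1 for CHIR99021+VPA (14.9%). With only the compared groups fitted, 2 members passed for CHIR99021, 1 for VPA, 4 for CHIR99021+VPA and 1 for CHIR99021+VPA against CHIR99021, where 5.63%, 8.18%, 11.9% and 1.5% of all genes did. Against 0, 8, 22 and 16 members passed for CHIR99021, VPA and CHIR99021+VPA, where 22.4%, 36.5% and 40.5% of all genes did. That setting leaves the control arrays out of the baseline, while they stay in the shared estimate of spread. Leaving out 1 array gave 0 to 11 members for VPA, 0 to 12 for CHIR99021+VPA and 0 to 16 for CHIR99021+VPA against CHIR99021, and 0 for the other comparisons, while 0.623% to 12.9%, 2.81% to 16.9% and 1.49% to 10.7% of all genes passed in the first 3. Where an arm then held 1 array, it was assumed to vary like the other groups. Tk1 kept its calls except without a control array (adjusted p 0.077 and 0.0893 with VPA, 0.0571 and 0.07 with both compounds) and, for VPA added to CHIR99021, without a CHIR99021 array (0.0625 and 0.0675). The cause of these changes was not tested. Medians over the members changed sign in 2 comparisons: that of CHIR99021+VPA against VPA was -0.03 without VPA of line 2, against 0.15 with all arrays, and the median interaction, -0.11 with all arrays, was 0.09 without VPA of line 1 and -0.29 without VPA of line 2. Keeping genes with a marked spot, chosen after seeing the data, changed no count. All 34 members with a probe were well above background on all 8 arrays.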

Other observations

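The Cy3 channel, which held control RNA on all 8 arrays, gave the level of each gene in untreated organoids of each line 4 times. Over the 32 replication and G1/S genes the median of line 2 minus line 1 was 0.20 in log2 Cy3 signal, and 25 of the 32 were higher in line 2. Over all genes tested the median was 0.03, and 10467 of 19255 were higher in line 2. The median SD of the 4 readings of a gene was 0.05 for the replication genes and 0.06 for all genes. Mcm7 had 14.20 in line 2 and 13.44 in line 1, and Rfc3 had 10.57 in line 2 and 9.90 in line 1, the largest gaps of the list, while Cdt1 had 13.40 in line 2 and 13.77 in line 1. Line 2 is also the line in which the members lay further below control with VPA. Line and slide cannot be told apart here, the 4 readings share 1 RNA type and 1 slide, and the relation of the untreated level to the VPA difference was not tested.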
